A study of Mus musculus with 6 samples.

Results

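The genes described here encode the molecules that present peptides to T cells and the machinery that supplies those peptides. They are 10 of the 22527 gene symbols on the array, listed by name, with earlier results of these data known: the MHC class I heavy chains H2-K1 and H2-D1, their light chain B2m, the peptide supply genes Tap1, Tap2 and Psmb8, the class II chains H2-Aa, H2-Ab1 and H2-Eb1, and the class II chaperone Cd74. All probe sets that name at least 1 of them were used, which gave 34 of 45077 probe sets. On this array a transcript is read by a set of short probes, and a gene may be read by more than one such probe set. RNA came from the cerebral cortex of male mice, in 3 groups of 2 arrays, 6 arrays in all. The groups were SAMR1 + Water, SAMP8 + Water (SAMP8 control) and SAMP8 + STEE. SAMP8 is a senescence-accelerated strain that carries no transgene, and SAMR1 is its senescence-resistant counterpart. STEE, a sugarcane top ethanolic extract, was given by mouth at 20 mg/kg for 30 days and through 8 days of behavioral tests, and both water groups received an equal volume of water over the same time. Per the study's methods, mice of all groups also drank BrdU, a label of dividing cells, for part of that time. The labels give an age of 16 weeks, which in the methods is the age of the mice entering the experiment, so the tissue was taken from older animals, after acclimatization, dosing and testing.

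In class I presentation, the immunoproteasome, to which Psmb8 contributes a catalytic subunit, cuts proteins into peptides, TAP1 and TAP2 pump these into the endoplasmic reticulum, and a heavy chain bound to B2m carries them to the cell surface. In class II presentation, an alpha and a beta chain assemble with CD74, which guards the groove until peptides from the endosome replace it. Class I is made by most cells and is induced by interferon, whereas class II is largely a product of professional antigen-presenting cells, which are scarce in healthy cortex. The heavy chains and class II chains are among the most polymorphic genes of the mouse, lie together in the MHC region of chromosome 17, and differ between inbred strains in sequence.

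The values are the authors' mean log2 signals of each group, with no value per array used here, so no standard deviation and no test stands behind any difference below. Instead, each difference is set beside the same difference over all probe sets. Over the whole array the median size of the log2 difference was 0.07 between the strains (SAMP8 control minus SAMR1) and 0.06 with STEE (STEE-fed minus SAMP8 control). A difference of at least 1.5-fold, or 0.58 on the log2 scale, was reached by 0.876% of all probe sets in the strain comparison and by 0.0799% in the STEE comparison. The median group mean over all probe sets was 4.15, and 27 of the 34 antigen presentation probe sets did not exceed it in any group, where signal may be close to the floor of the array. All 8 cortical neuron markers examined, Snap25 and Slc17a7 among them, exceeded it. In whole tissue, fewer cells of a type and less RNA per cell cannot be told apart.

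Between the strains, the antigen presentation genes did not share a direction. B2m was higher in SAMP8 control than in SAMR1 at both of its bright probe sets. H2-K1 was lower at its brightest probe set but not at the 1 probe set left to it without those marked s or x (0.08 in place of -0.49). That probe set was dim, at 3.82 in SAMR1 and 3.90 in SAMP8 control, and also names H2-Q5. H2-D1 was lower at some probe sets and higher at others. The class II chains, Tap1, Tap2 and Psmb8 showed small differences in either direction. Of the 34 probe sets, 18 were higher and 16 lower in SAMP8 control, with a median log2 difference of 0.025 and a median absolute log2 difference of 0.09. A difference of at least 1.5-fold was found at 4 of the 34 (11.8%, against 0.876% of all probe sets): 1 of H2-K1, 2 of H2-D1 and 1 of B2m. The 3 of the heavy chains are marked x, for probes that can match several transcripts. Without probe sets marked s or x, 1 of 14 was left, that of B2m (against 0.839% of all such probe sets). Among the 4 whose mean over the groups exceeded the median of all probe sets, 1 was left, again of B2m (against 1.48%). At 1.2-fold the count was 7 of 34 (against 7.11% of all probe sets) and at 2-fold 2 of 34 (against 0.273%). With each gene read from its brightest probe set, 0 of the 10 genes differed by 1.5-fold, against 1.16% of all genes, and 2 of 10 by 1.2-fold (H2-K1 and B2m), against 6.86%. At 2-fold the count was 0 of 10, against 0.475% of all genes. With each gene read from its most different probe set, a choice that raises the count for any gene with several, 3 of 10 reached 1.5-fold, against 1.66% of all genes.

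**Figure D1:**
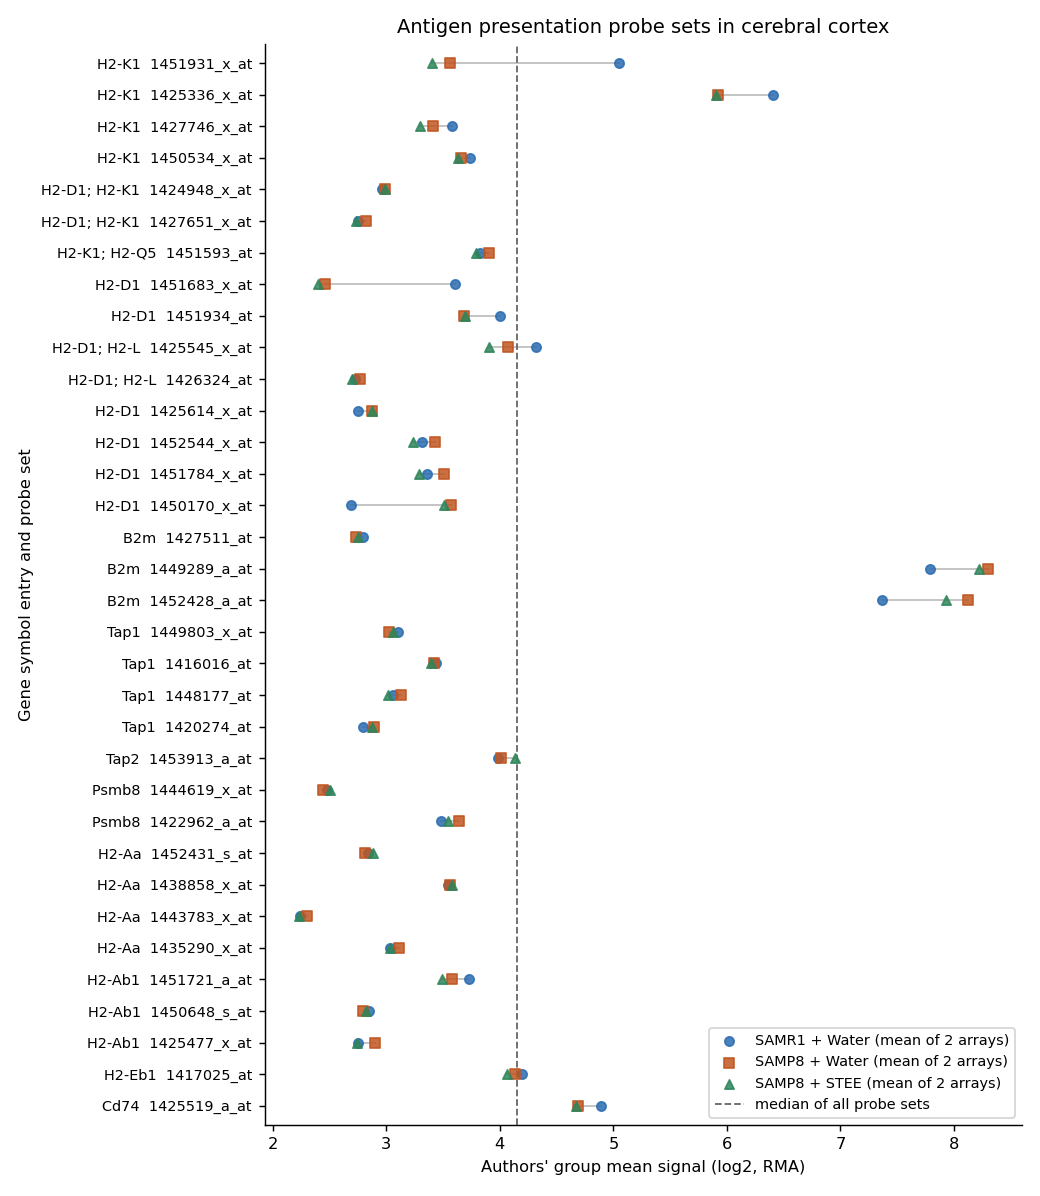
Authors' mean log2 signal of the 34 antigen presentation probe sets (rows, with the symbols they carry) in SAMR1 + Water (circles), SAMP8 + Water (squares) and SAMP8 + STEE (triangles), each a mean of 2 arrays with no error available; the dashed line is the median of all probe sets, 4.15. The squares and triangles lie close together in every row, while the circle stands apart at 1451931 and 1425336 of H2-K1, at 1451683 and 1450170 of H2-D1 and at the 2 bright rows of B2m.

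Among the class I heavy chains, H2-K1 was carried by 7 probe sets. At the brightest, 1425336_PM_x_at, its mean log2 signal was 6.41 in SAMR1, 5.92 in control SAMP8 and 5.90 after STEE, so SAMP8 control was lower by 1.40-fold (log2 difference -0.49). The widest gap of all 34 probe sets was at 1451931_PM_x_at of H2-K1, where the mean was 5.05 in SAMR1 against 3.56 in SAMP8 control and 3.40 with STEE. Here SAMP8 control was 2.81-fold lower, a log2 difference of -1.49 that 0.118% of all probe sets and 0.200% of the 2000 probe sets of most similar signal reached in either direction. Both SAMP8 groups were low at this probe set. Over the 7 probe sets of H2-K1, 4 were lower and 3 higher in SAMP8 control, and the 3 higher ones exceeded SAMR1 by at most 0.08. All 3 of those carry a second gene symbol, H2-D1 or H2-Q5, as well.

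H2-D1 was carried by 10 probe sets, and they disagreed in direction. At 1451683_PM_x_at the mean log2 signal was 3.60 in SAMR1, 2.46 in control SAMP8 and 2.40 after STEE, 2.20-fold lower in SAMP8 control (log2 difference -1.14), a size that 0.197% of all probe sets reached. At 1450170_PM_x_at it was 2.69 in SAMR1, 3.57 in control SAMP8 and 3.51 after STEE, 1.84-fold higher in SAMP8 control (log2 difference 0.88), a size that 0.353% reached. Both probe sets stayed under 4.15 in each of the groups, so these folds rest on signals that may be close to the floor, and their opposite signs are given as values only. At 1451934_PM_at H2-D1 was 4.0, 3.68 and 3.69 in SAMR1, SAMP8 control and STEE-fed SAMP8, a strain difference of -0.32. The brightest probe set, 1425545_PM_x_at, which also carries H2-L, stood at 4.32, 4.07 and 3.90, a strain difference of -0.25. At the other 6 probe sets of H2-D1 the SAMP8 control mean exceeded that of SAMR1 by between 0.03 and 0.15.

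The spread between probe sets of one gene was wide for both heavy chains. The strain differences of H2-D1 ran from -1.14 to 0.88, a range of 2.02 on the log2 scale, and those of H2-K1 from -1.49 to 0.08, a range of 1.57. Among the 980 genes with at least 5 probe sets, the median range was 0.28, and 0.408% had a range of at least that of H2-D1 and 0.714% at least that of H2-K1. In the STEE comparison, within a strain, the ranges of H2-D1 and H2-K1 were 0.23 and 0.16, which 42.2% and 71.6% of the same genes reached. The probe sets of the heavy chains thus differed among themselves in what they showed between the strains and little in what they showed between the SAMP8 groups. Together H2-K1 and H2-D1 were carried by 15 probe sets. Of these, 8 were designed against targets of a single sequence cluster of the array design, and these 8 included both 1450170_PM_x_at, labelled H2-D1, and 1451931_PM_x_at, labelled H2-K1. Whether base differences between the strains under the probes have a part in these values was not tested, and with these probe sets a change in the amount of heavy chain RNA and a change in its sequence cannot be told apart.

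B2m, the light chain that every classical class I molecule needs, is encoded on chromosome 2, away from the MHC region. At 1449289_PM_a_at its mean log2 signal was 7.79 in SAMR1, 8.30 in control SAMP8 and 8.22 after STEE. At 1452428_PM_a_at it was 7.37 in SAMR1, 8.12 in control SAMP8 and 7.93 after STEE. SAMR1 was the lowest of the 3 groups at both. SAMP8 control was higher by 1.42-fold and 1.68-fold (log2 differences 0.51 and 0.75), sizes that 1.70% and 0.650% of the 2000 probe sets of most similar signal reached. Whether base differences between the strains under the B2m probes have a part in these values was not tested. The third B2m probe set, 1427511_PM_at, was dim, at 2.79, 2.73 and 2.75, with 9.38% of all probe sets below it in mean signal. At the brightest probe sets, the strain difference of B2m (0.51) was the largest of the 10 genes and that of H2-K1 (-0.49) of much the same size in the other direction. Over the 3 group means, the genes whose pair of differences lay closest to that of B2m were Ankrd63 and Coch, each 0.01 away on the log2 scale, followed by Actn2 and Dio2 at 0.0316. This likeness rests on 3 means and 2 differences per gene.

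The start regions of H2-K1, H2-D1 and B2m are shown because these 3 genes hold the 4 probe sets past 1.5-fold, and because class I genes are known to be driven together by a shared set of promoter elements. Sequences are from RefSeq, mouse build GRCm38.p6, and are those of the C57BL/6J reference, not of SAMP8 or SAMR1. Each window runs from 250 bases before the annotated start to 50 bases after it, 5′ to 3′ on the strand of the gene. It lies at chr17:34000298-34000597 on the minus strand for H2-K1 (the first of its 2 entries), at chr17:35262844-35263143 on the plus strand for H2-D1 and at chr2:122147437-122147736 on the plus strand for B2m. Capitals mark 4 motifs, each searched as written and as its reverse complement. The first is CCAAT, the box bound by NF-Y. The second is TGACG, the core shared by cyclic AMP response elements. The third is GGATTCC, the core of a kappa B type element. The last is the pattern of an interferon response element, GAAA repeated after any 2 bases.
H2-K1: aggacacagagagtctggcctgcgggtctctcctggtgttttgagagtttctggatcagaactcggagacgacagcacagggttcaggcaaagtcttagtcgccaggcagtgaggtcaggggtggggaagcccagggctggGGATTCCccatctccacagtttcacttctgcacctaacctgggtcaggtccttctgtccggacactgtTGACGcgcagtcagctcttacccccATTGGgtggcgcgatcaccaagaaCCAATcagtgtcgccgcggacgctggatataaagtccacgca
H2-D1: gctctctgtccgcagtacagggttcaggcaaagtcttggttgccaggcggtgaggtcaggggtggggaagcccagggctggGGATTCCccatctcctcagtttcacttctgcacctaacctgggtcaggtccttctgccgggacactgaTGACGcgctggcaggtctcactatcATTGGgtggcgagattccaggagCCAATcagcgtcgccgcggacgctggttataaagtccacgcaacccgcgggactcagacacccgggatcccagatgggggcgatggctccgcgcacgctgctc
B2m: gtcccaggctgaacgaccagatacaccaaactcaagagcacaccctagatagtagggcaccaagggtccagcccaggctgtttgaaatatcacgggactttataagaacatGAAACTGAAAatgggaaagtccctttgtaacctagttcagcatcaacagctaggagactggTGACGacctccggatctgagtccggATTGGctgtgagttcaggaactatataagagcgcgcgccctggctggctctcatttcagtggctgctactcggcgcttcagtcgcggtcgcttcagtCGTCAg

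Both heavy chain windows held the kappa B type core, the cyclic AMP core and a CCAAT box in that order. That CCAAT box was on the other strand in both, and another followed it as written, in H2-K1 after the annotated start. The kappa B type core began 68 bases before the cyclic AMP core in each, 109 bases before the annotated start of H2-K1 and 169 before that of H2-D1. The distance depends on which start is annotated, and in the second entry of H2-K1 it was 123. These values therefore do not compare how far the element lies from transcription in the 2 genes. Aligned on the kappa B type core without gaps, the 2 windows were equal at 176 of 240 bases (73.3%). B2m held the cyclic AMP core 78 bases before its start, and again on the other strand after the start. Its CCAAT box, on the other strand as in the heavy chains, lay 53 bases before the start. The interferon response pattern lay 139 bases before it. Neither heavy chain window held that pattern as written. An exact search misses variant forms, so this does not show that the heavy chain windows lack an interferon response element. Of 32851 windows of the same length in the table, 37.4% held a CCAAT box, 20.8% the cyclic AMP core, 3.79% the kappa B type core and 3.44% the interferon response pattern on either strand. These matches describe the reference letters and do not show that a factor binds there. A window was kept for 7 of the 10 genes. Entries on the chromosome of Cd74 were left out beforehand, so whether Cd74 has a window was not examined.

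The peptide supply genes gave little signal. Tap1, a subunit of the peptide transporter, had 4 probe sets, and at the brightest its mean log2 signal was 3.44 in SAMR1, 3.42 in control SAMP8 and 3.39 after STEE. Tap2, its partner, stood at 3.98, 4.01 and 4.13 in the same order. Psmb8, the immunoproteasome subunit, stood at 3.48, 3.64 and 3.54 at its brighter probe set. None of these means exceeded the median of all probe sets. Over the 7 probe sets of the 3 genes, the strain differences ran from -0.08 to 0.16 and the STEE differences from -0.12 to 0.12, in both directions in each comparison. The 0.16 of Psmb8 was reached by 16% of the probe sets of most similar signal.

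The class II genes were dim as well, apart from Cd74. Cd74, the invariant chain, had 1 probe set, with a mean log2 signal of 4.89 in SAMR1, 4.69 in control SAMP8 and 4.67 after STEE, lower in SAMP8 control by 1.15-fold (log2 difference -0.20). A difference of that size was found at 21.2% of the probe sets of most similar signal. H2-Eb1, a beta chain, stood at 4.19, 4.13 and 4.06, around the median of all probe sets. H2-Ab1, the other beta chain, stood at 3.73, 3.58 and 3.49 at its brightest probe set, and its 3 probe sets differed between the strains by -0.15 to 0.15. H2-Aa, an alpha chain, stood at 3.54, 3.56 and 3.58 at its brightest, with 4 probe sets that differed by -0.03 to 0.08. Over the 9 class II probe sets, 4 were higher and 5 lower in SAMP8 control, and no difference exceeded 0.20 in size. With no error for these means, differences of this size cannot be told from none, which does not show that there was none.

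With STEE, none of the 34 probe sets differed by 1.5-fold from SAMP8 control, and 0 of them reached 1.2-fold, against 2.01% of all probe sets, or 2-fold, against 0.0222%. The differences ran from -0.22 to 0.12 with a median of -0.065, and 24 of the 34 probe sets were lower with STEE, 8 higher and 2 equal, where 48.1% of all probe sets were lower. Of the 15 heavy chain probe sets, 12 were lower, 1 higher and 2 equal, with differences between -0.22 and 0.01. The largest was 1451784_PM_x_at of H2-D1, at 3.36 in SAMR1, 3.51 in control SAMP8 and 3.29 after STEE, a size that 3.15% of the probe sets of most similar signal reached. At its bright probe sets B2m was lower with STEE, with log2 differences of -0.08 and -0.19. H2-D1 stood at -0.17 at its brightest probe set and at 0.01 at the brightest that names H2-D1 alone. Read from the brightest probe set, 8 of the 10 genes were lower and 2 higher with STEE, with a median log2 difference of -0.05, where 48.4% of all genes were higher and 46.9% lower. At 1.5-fold 0 of the 10 genes differed, against 0.164% of all genes, at 1.2-fold 0, against 2.02%, and at 2-fold 0, against 0.0266%. Many of these probe sets share transcripts and all share the arrays, so the counts are not independent. The SAMP8 control arrays serve in both comparisons, and a control mean that is high by chance would raise the first difference and lower the second.

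**Figure D2:**
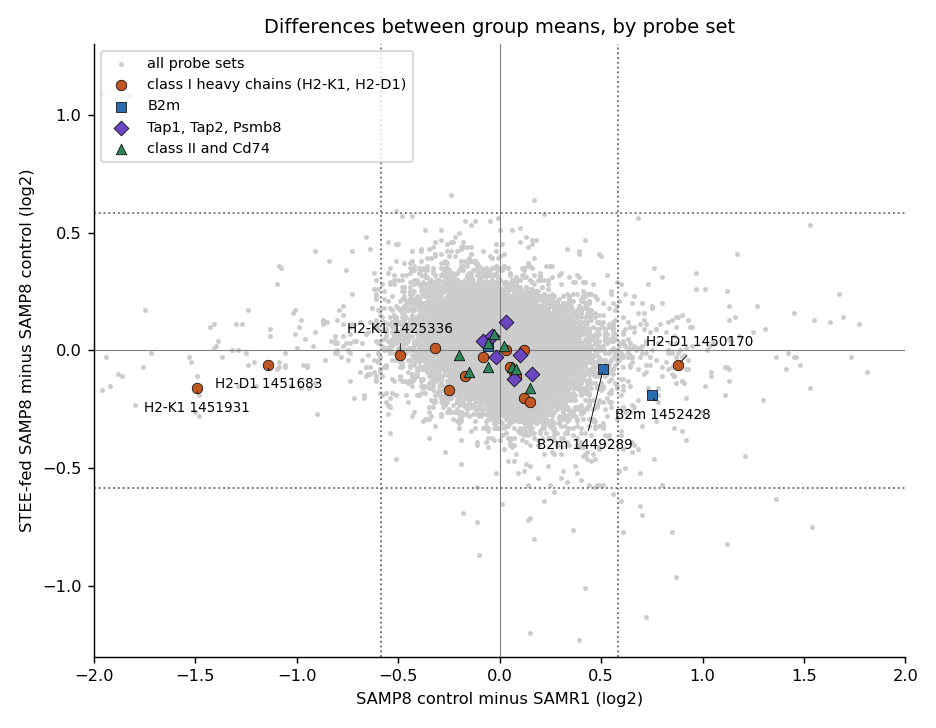
Each point is a probe set, with SAMP8 control minus SAMR1 on the horizontal axis and STEE-fed SAMP8 minus SAMP8 control on the vertical axis (log2 differences of group means); grey points are all probe sets, apart from 29 outside the axes, and dotted lines mark 1.5-fold. The antigen presentation probe sets spread from -1.49 to 0.88 horizontally and only from -0.22 to 0.12 vertically.

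STEE-fed SAMP8 and SAMP8 control lay on the same side of SAMR1 at each of the 4 probe sets past 1.5-fold. STEE-fed SAMP8 minus SAMR1 was -1.65 at 1451931_PM_x_at of H2-K1, -1.20 and 0.82 at 1451683_PM_x_at and 1450170_PM_x_at of H2-D1, and 0.56 at 1452428_PM_a_at of B2m. These differences come from other SAMP8 arrays than those of the strain comparison and from the same SAMR1 arrays. The probe sets were picked for their strain difference. A SAMR1 mean that is extreme by chance would therefore place both SAMP8 groups on the same side of it. The SAMP8 control means of both deposited tables were equal at all 45077 probe sets, so the 3 groups share a normalization.

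The rest of the pathway showed no difference of 1.5-fold in either comparison, gene by gene at the brightest probe set. Of all genes, 1.16% reached it between the strains and 0.164% with STEE, so few would be looked for in lists of this size. Of 14 other genes of class I processing and loading, 11 were higher and 3 lower in SAMP8 control, with a median log2 difference of 0.07 (47.1% of all genes were higher and 49.1% lower). Hspa5, an endoplasmic reticulum chaperone, was higher in SAMP8 control by 0.47 and Calr, a chaperone of the peptide-loading complex, by 0.25, whereas Tapbp, which links the heavy chain to TAP, was lower by 0.34 (log2 difference -0.34). Erap1, which trims peptides, differed by 0.12 between the strains and by -0.24 with STEE. Of 22 class I-like and non-classical class I genes, read from 19 probe sets, 15 were higher and 6 lower in SAMP8 control, with a median of 0.03. The largest differences were those of H2-T23, which encodes Qa-1, at 0.44, the pseudogene H2-Bl at 0.42 and H2-Q7, a Qa-2 gene, at 0.38. The probe set of H2-T23 also names C920025E04Rik, and that of H2-Q7 also names H2-Q9. The mean of H2-T23 was 4.43 in SAMR1, 4.87 in control SAMP8 and 4.95 after STEE. H2-L shares its probe set with H2-D1, given above.

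Of 15 other class II pathway genes, 7 were higher and 6 lower in SAMP8 control, with a median of 0. H2-Ea-ps, an alpha chain gene that is not expressed in C57BL/6 mice, was bright at 1422891_PM_at, at 6.73 in SAMR1, 7.17 in control SAMP8 and 7.13 after STEE (strain difference 0.44). Its other probe sets, 1422892_PM_s_at and 1426202_PM_at, stood at 3.10 and 2.73 in SAMR1 and at 3.31 and 2.71 in SAMP8 control, and whether the bright signal comes from this transcript was not tested. H2-DMa, which helps load class II molecules, differed by -0.21 between the strains, and Mylip, a ubiquitin ligase, by -0.27. Mylip was counted in this list, although it is not an established gene of class II presentation. Lgmn, an endosomal protease, differed by -0.03 between the strains and by 0.13 with STEE. Of 17 transcriptional regulators, 10 were higher and 7 lower in SAMP8 control and 12 were lower with STEE. Nfya, a subunit of the factor that binds CCAAT, differed by 0.23 between the strains and by -0.29 with STEE, Ifngr2, a chain of the interferon gamma receptor, by 0.28 between the strains, Rela by -0.21 and Irf1 by -0.17. Ciita and Nlrc5, the master regulators of class II and class I, differed by -0.03 and -0.04 between the strains at dim probe sets, and are named for their roles.

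Interferon-stimulated genes, listed because class I genes respond to interferon, were the one list with a single direction. All 17 on the array had a higher mean in SAMP8 control, by 0.06 to 0.58 over SAMR1 with a median of 0.22, where 47.1% of all genes were higher. Ifit1 stood at 3.07 in SAMR1, 3.65 in control SAMP8 and 3.49 after STEE, and Ifit3 at 4.48, 4.95 and 4.88. Irf9 differed by 0.44 and Oasl2 by 0.34. None of the 17 reached 1.5-fold, 9 of them did not exceed the median of all probe sets in any group, and with STEE 12 were lower and 5 higher. Of the 10 antigen presentation genes, B2m (0.51) and Psmb8 (0.16) lay within that range at the brightest probe set, Tap2 (0.03) and H2-Aa (0.02) lay above 0 but below it, and the other 6, H2-K1 and H2-D1 among them, lay below 0.

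**Figure D3:**
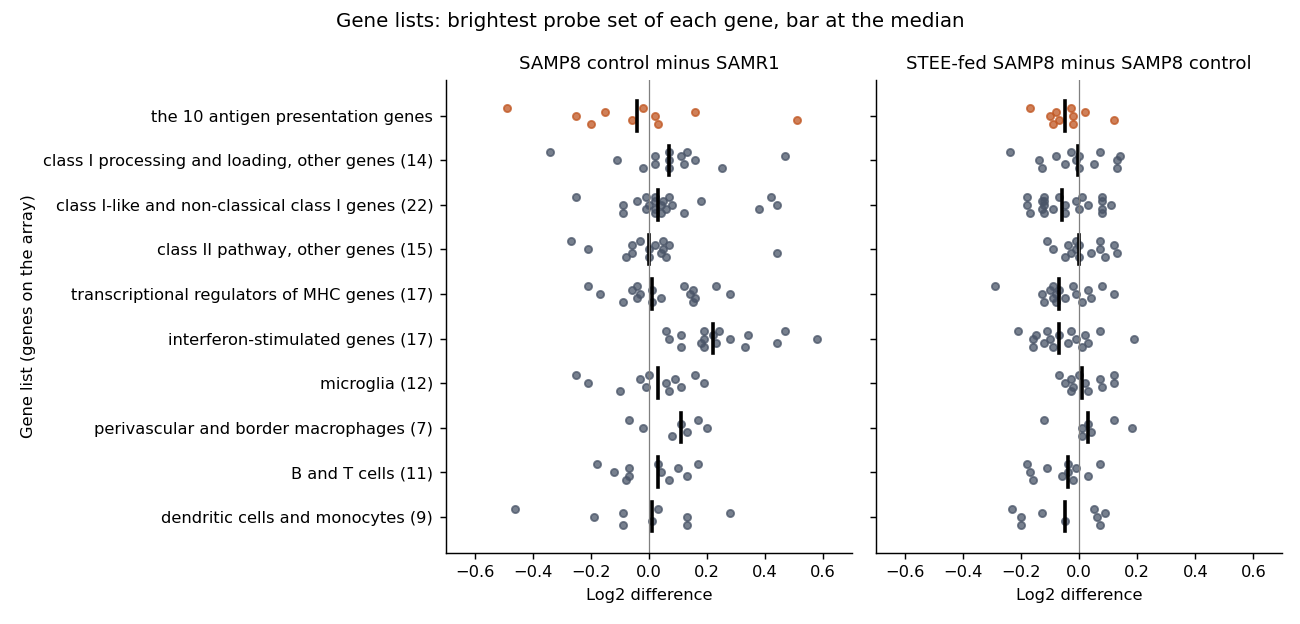
Log2 differences at the brightest probe set of each gene, by gene list (rows, with the number of genes on the array), for SAMP8 control minus SAMR1 (left) and STEE-fed SAMP8 minus SAMP8 control (right); black bars are medians. The 17 interferon-stimulated genes all lie above 0 on the left, while the 10 antigen presentation genes spread from -0.49 to 0.51.

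Markers of immune and vascular cells did not show a common direction between the strains. Of 12 microglial genes 6 were higher and 5 lower in SAMP8 control (range -0.25 to 0.19), of 11 B and T cell genes 6 and 5 (range -0.18 to 0.17), of 9 genes of dendritic cells and monocytes 5 and 4 (range -0.46 to 0.28), and of 7 endothelial genes 3 and 4 (range -0.28 to 0.28). Of 7 genes of perivascular and border macrophages, 5 were higher and 2 lower (range -0.07 to 0.20), all of them dim. The mean of the microglial group means was 6.39 in SAMR1, 6.39 in control SAMP8 and 6.41 after STEE. Blood genes differed by -0.08 to 0.17. Among 6 choroid plexus genes, Ttr differed by -1.96 between the strains and by 1.09 with STEE, and the others by -0.43 to 0.02 between the strains. The part of any of these cells in the antigen presentation values was not tested.

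Neighbours of the MHC genes on chromosome 17 were read as well. In the RefSeq gene order, 285 genes lie from H2-K2 to H2-M2, of which 138 were on the array, 32 as MHC genes and 106 as other genes. The 32 were read from 29 distinct probe sets. They include 4 genes of peptide supply that encode no MHC molecule, namely Tap1, Tap2, Psmb8 and Psmb9. They also include the pseudogene H2-Bl, and C920025E04Rik and H2-Ea-ps, which are or have been named as pseudogenes. With STEE, 0 of the 106 differed by at least 1.5-fold, against 0.164% of all genes. Between the strains 4 of the 106 did (3.77%, against 1.16% of all genes), 1 higher and 3 lower in SAMP8 control (against 0.79% and 0.368% of all genes). They were 1110038B12Rik, at 7.71 in SAMR1 and 6.50 in SAMP8 control, Hspa1b, an inducible heat shock gene, at 6.41 and 7.33, Mog, a myelin gene, at 6.30 and 5.67, and the complement gene C4b, at 6.77 and 6.16. The median absolute strain difference of the 106 genes was 0.095, against 0.07 over all genes. Of the 32 genes counted as MHC genes, 0 reached 1.5-fold at the brightest probe set, against 1.16% of all genes. Their strain differences ran from -0.49 for H2-K1 to 0.44. A strain difference of a gene in this region does not tell apart a difference in RNA amount from one in probe sequence.

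**Figure D4:**
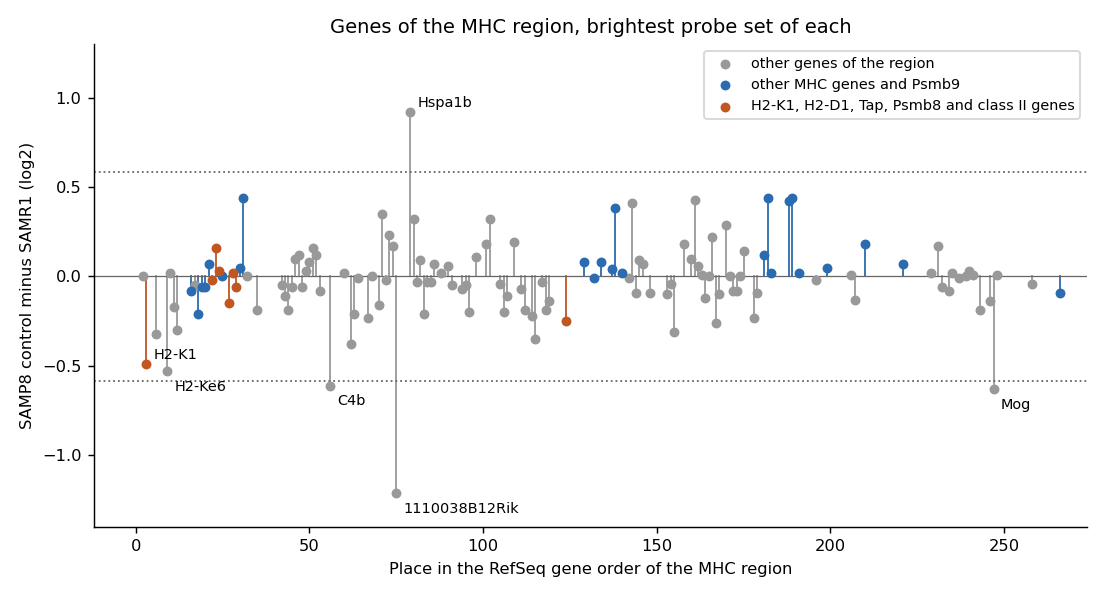
SAMP8 control minus SAMR1 (log2 difference of group means, vertical axis) for the 138 genes of the MHC region on the array, placed by their rank in the RefSeq gene order (horizontal axis); dotted lines mark 1.5-fold. Differences of both signs are scattered along the region, and 4 genes that encode no MHC molecule or antigen processing factor pass a dotted line.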

How the data were processed

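RNA of 6 cortical samples was labelled with biotin after amplification and read on Affymetrix mouse array strips. The authors summarised the intensities with RMA in Expression Console and averaged the 2 arrays of each group in Transcriptome Analysis Console; these bi-weight group averages are what the authors deposited, as log2 values rounded to 2 decimals. RMA makes arrays comparable but compresses differences at low signal. The deposited tables also hold the authors' fold changes, ANOVA p-values and FDR p-values of both comparisons, which were not used. Precision is limited by the number of arrays.

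Groups were taken from the sample titles. Gene symbol entries were split at semicolons. Differences of group means were computed with Python 3.11.15, numpy 2.4.6 and pandas 2.3.3, drawn with matplotlib 3.10.9, and called at 1.5-fold. The calculation was tested on simulated group means with known differences and no noise. That checks the counting, not how reliable a call is. No test was run, since no values per array were used. Similar signal means the 2000 probe sets nearest in mean signal. A gene was read from its brightest probe set (highest mean over the groups). Probe sets ending in x or s hold probes that can match several transcripts. From each pathway list up to 4 genes with the largest difference are named, and from the MHC region 4. Gene names in RefSeq (GRCm38.p6) gave the gene order, and H2-Ke6, which encodes no MHC molecule, was counted with the other genes. The members and lists were chosen with earlier results of these data known.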

Additional observations from a re-analysis of the deposited data

How the results depend on the processing

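The count of 4 antigen presentation probe sets at least 1.5-fold apart between the strains became 7 at 1.2-fold and 2 at 2-fold. It was 2 among probe sets above the overall median in at least 1 group, a filter that 1 of the 2, of H2-K1, passed through SAMR1 alone, so that the difference itself admitted it. It was 1, that of B2m, among probe sets whose mean over the groups was above that median and also without probe sets ending in s or x, and stayed at 4 with each group centred on its median. The count of 0 genes at 1.5-fold between the strains became 2 at 1.2-fold, and 3 when each gene was read from its probe set with the largest difference, which moved the median log2 difference from -0.04 to 0.055. Under every other setting tried the counts stayed, and with STEE they were 0 under all of them. Of 98 values of single genes under other settings, 77 moved by no more than the median absolute difference of all probe sets, 21 moved further, and 8 changed sign, none of them past 1.5-fold in both settings. These were values of H2-K1, Tap1 and H2-Ab1 between the strains and of H2-D1 and H2-Aa with STEE. Reading only probe sets with 1 gene symbol and the filter on the mean over the groups were added after the data were seen. No paired analysis was possible because the columns used are group means and carry no replicate number, and for the same reason no replicate could be left out.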
